A study of Mus musculus with 10 samples.

Results

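Csf1 and the receptors for the colony-stimulating factors were followed through CD45+ cells of the mouse brain. The 6 genes Csf1, Csf1r, Csf2ra, Csf2rb, Csf2rb2 and Csf3r were chosen by name, as the ligand and receptors of this cytokine family, from the 31053 genes of the count matrix, and all 6 were found in it. The measurement was single-cell RNA sequencing of cells sorted by FACS for CD45, a surface protein of blood-derived cells and microglia, from whole brain dissociated in the presence of actinomycin D, which blocks transcription. All mice were C57BL/6 littermates of a cross between a constitutive Nlrp3 deletion (Nlrp3KO) and APP/PS1 mice. APP/PS1 mice overexpress amyloid precursor protein with the Swedish mutation, together with mutant human presenilin-1. The 10 libraries were WT and Nlrp3KO at 3, 6 and 9 months of age and APP/PS1 and Nlrp3KO APP/PS1 at 3 and 9 months, and each was a pool of 3 mice, 2 males and 1 female. A group at an age is therefore 1 library, and every p-value below measures the spread between these pooled libraries. The tests estimate this spread partly from other genes. The deletion is carried by every cell of the animal, so an effect of Nlrp3KO cannot be assigned to microglia. Each age was also its own experimental batch, so a difference between ages and a difference between batches cannot be told apart, whereas each genotype was compared with its control within a batch.

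Colony-stimulating factors are cytokines on which cells of the myeloid lineage depend. Csf1 and Il34 bind the receptor tyrosine kinase Csf1r, and microglia need signalling through it to survive in the adult brain. Csf2 (GM-CSF) binds a specific alpha chain, Csf2ra, which signals through the common beta chain Csf2rb, shared with the receptors for Il3 and Il5, whereas Csf2rb2 is a rodent beta chain that pairs with the Il3 receptor. Csf3r is the homodimeric receptor for Csf3 (G-CSF), best known from neutrophils.

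The matrix held 52369 cells, of which 45472 belonged to the 10 labelled libraries and 40547 of those were annotated as microglia by the authors. A library held 2223 to 9112 cells, 1755 to 8208 of them microglia, with 9357431 to 35107144 unique molecular identifiers (UMIs) over its microglia and a median of 3978 to 5985 UMIs per microglial cell. The libraries shared 246 cell barcodes (493 cells). Over all cells labelled microglia, the marker genes P2ry12, Tmem119 and Cx3cr1 were at 3183, 1579 and 4866 UMIs per 1000000 UMIs (CPM). The authors identified microglia from known signature genes in these data, so such levels do not test the label. Nlrp3 itself was at 0 CPM in the microglia of all 5 Nlrp3KO libraries and between 34.4 and 53.7 CPM in the other 5.

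Csf1 was the member called as changed with APP/PS1, within disease-associated microglia, and Csf3r was at a higher CPM in microglia than in neutrophils, so the promoters of these 2 genes are shown. Csf1 lies on the minus strand of chromosome 3 (GRCm38, chr3:107741048-107760469), and Csf3r on the plus strand of chromosome 4 (chr4:126024550-126044440). The sequences are the 250 bases before the RefSeq transcription start, 5′ to 3′ on the gene's own strand (GRCm38.p6). Capitals in Csf1 (chr3:107760470-107760719) mark the 10 letters of an NF-kB site, which read as such on the opposite strand, 154 bases before the start. Capitals in Csf3r (chr4:126024409-126024658) mark the PU.1 letters GAGGAAG, 86 bases before the RefSeq start. The Csf3r gene span given above begins at 126024550, inside this window, so the marked letters lie within that span.
Csf1: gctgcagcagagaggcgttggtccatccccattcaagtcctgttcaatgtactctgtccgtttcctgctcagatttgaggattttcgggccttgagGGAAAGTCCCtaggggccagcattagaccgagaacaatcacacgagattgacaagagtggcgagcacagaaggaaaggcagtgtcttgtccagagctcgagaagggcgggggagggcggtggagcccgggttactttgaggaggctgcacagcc
Csf3r: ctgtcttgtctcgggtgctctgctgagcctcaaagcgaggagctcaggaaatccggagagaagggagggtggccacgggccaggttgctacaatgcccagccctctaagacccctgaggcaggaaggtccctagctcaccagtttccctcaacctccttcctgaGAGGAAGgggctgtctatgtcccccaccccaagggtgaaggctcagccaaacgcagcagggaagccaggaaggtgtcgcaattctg

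Both strands were searched for 4 sets of letters in the promoters of 4 members, Csf1, Csf3r, Csf2rb2 and Csf2ra. The NF-kB letters were found in 46 of 32851 RefSeq promoters (0.14%) and, among the 4, in Csf1 alone. The PU.1 letters were far more common, in 3486 promoters (10.6%), and were present in Csf3r, Csf2rb2 (168 bases before the start) and Csf2ra (14 bases before). TGACGTCA, the cyclic AMP response element, was found in Csf2ra only of the 4 and in 508 promoters in all (1.55%), and the AP-1 letters TGANTCA in none of the 4 and in 2217 promoters (6.75%). These matches are letters in a window, and no binding was measured.

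The other genes lie on chromosome 18 (Csf1r, plus strand, chr18:61100598-61132149), chromosome 19 (Csf2ra, minus strand, chr19:61223957-61228429) and chromosome 15, where Csf2rb (chr15:78325752-78353847, plus strand) and Csf2rb2 (chr15:78282507-78305721, minus strand) are neighbours and near-copies. Of the 1378 words of 91 bases, the read length, that end the Csf2rb transcripts, 68 (4.94%) also occur in Csf2rb2, so reads from that part of Csf2rb could not be assigned to a gene, whereas 0 of the 820 words that end Csf2rb2 were shared. Csf1r overlaps Hmgxb3 on the opposite strand.

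Csf1, the ligand, was most abundant outside the homeostatic state. Pooled over the 10 libraries, Csf1 was at 8.44 CPM in homeostatic microglia (HM, 31953 cells), at 114 CPM in the microglia with an immediate-early gene signature (IEG, 2094 cells), at 64.7 CPM in disease-associated microglia (DAM, 901 cells) and at 34.6 CPM in interferon-response microglia (IRM, 2271 cells). These levels were 13.5 times (IEG), 7.67 times (DAM) and 4.10 times (IRM) that of HM, whereas transitioning (TM, 11.99 CPM) and proliferating microglia (PM, 14.6 CPM) lay closer to HM. The pooled DAM value depended on the mix of genotypes, since DAM were at 6.21 to 49.0 CPM (median 14.9) in the 6 non-diseased libraries and at 65.7 to 141 CPM in the 4 APP/PS1 libraries. Over the 10 libraries the median was 112 CPM in IEG, 37.7 CPM in IRM (26.9 to 48.5 CPM), 33.0 CPM in DAM and 8.28 CPM in HM, so DAM and IRM had no fixed order. The states were defined from the expression of the same cells, so these levels are a description. They use the authors' annotation of microglia. The authors' annotation of all CD45+ cells named 1237 cells IEG, of which 1118 were IEG in both. It named 1416 cells DAM, of which 788 were DAM in both. With 5.16% of the microglia, IEG held 37.8% of the microglial Csf1 UMIs, and DAM held 10.4% with 2.22% of the cells. Between libraries the IEG part ran from 12.3 to 50.4%, and the DAM part from 0.193 to 4.05% in non-diseased and from 6.96 to 39.9% in APP/PS1 mice.

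Outside the microglia, Csf1 was highest in a small cluster of 28 cells annotated as mast cells or basophils, at 359 CPM (78 UMIs, exact Poisson 95% interval 283 to 447), 19.3 times the microglial level. Their granule and IgE receptor genes were abundant, with Mcpt8 at 18528, Cpa3 at 3259 and Fcer1a at 1751 CPM. A Csf1 UMI was found in 23 of the 28 cells (82.1%), against 26.6% of IEG, 20.5% of DAM, 13.8% of IRM and 3.57% of HM cells. The DAM share was 3.23 to 16.2% in the non-diseased and 19.4 to 50% in the APP/PS1 libraries. Median depth also differed, at 4691 to 5397 UMIs per DAM in the former and 6185 to 8018.5 in the latter. At 1500 UMIs per cell these ranges overlapped, at 0 to 10.8% and 6.32 to 20.8%. Each APP/PS1 library stayed above the non-diseased one of its age and Nlrp3 genotype. The exact binomial 95% intervals were apart only in the Nlrp3KO pair of 9 months (0 to 3.55% against 5.37 to 13.7%). They overlapped in the other pairs, as in the Nlrp3KO pair of 3 months (3.03 to 25.4% against 8.61 to 25.3%). Among lymphoid cells, a Csf1 UMI was found in 2.57% of T cells, 1.31% of B cells, 9.31% of NK cells and 19.7% of group 2 innate lymphoid cells (ILC2). The median depths were 5482 UMIs per mast cell or basophil, 5408 in IEG, 5726 in DAM, 4366 in HM, 5810 in T cells and 4671 in B cells, so HM were shallower than T cells. Thinned to 1500 UMIs per cell, the shares were 50% for mast cells or basophils, 11.7% for IEG, 6.99% for DAM, 5.24% for IRM, 3.82% for ILC2, 2.37% for NK cells, 1.27% for HM (exact binomial 95% interval 1.15 to 1.40%) and 0.626% for T cells (0.3005 to 1.15%). By level, ILC2 were at 42.5 CPM and NK cells at 18.9 CPM, and border-associated macrophages (BAM) were at 6.38 CPM, below HM.

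**Figure D1:**
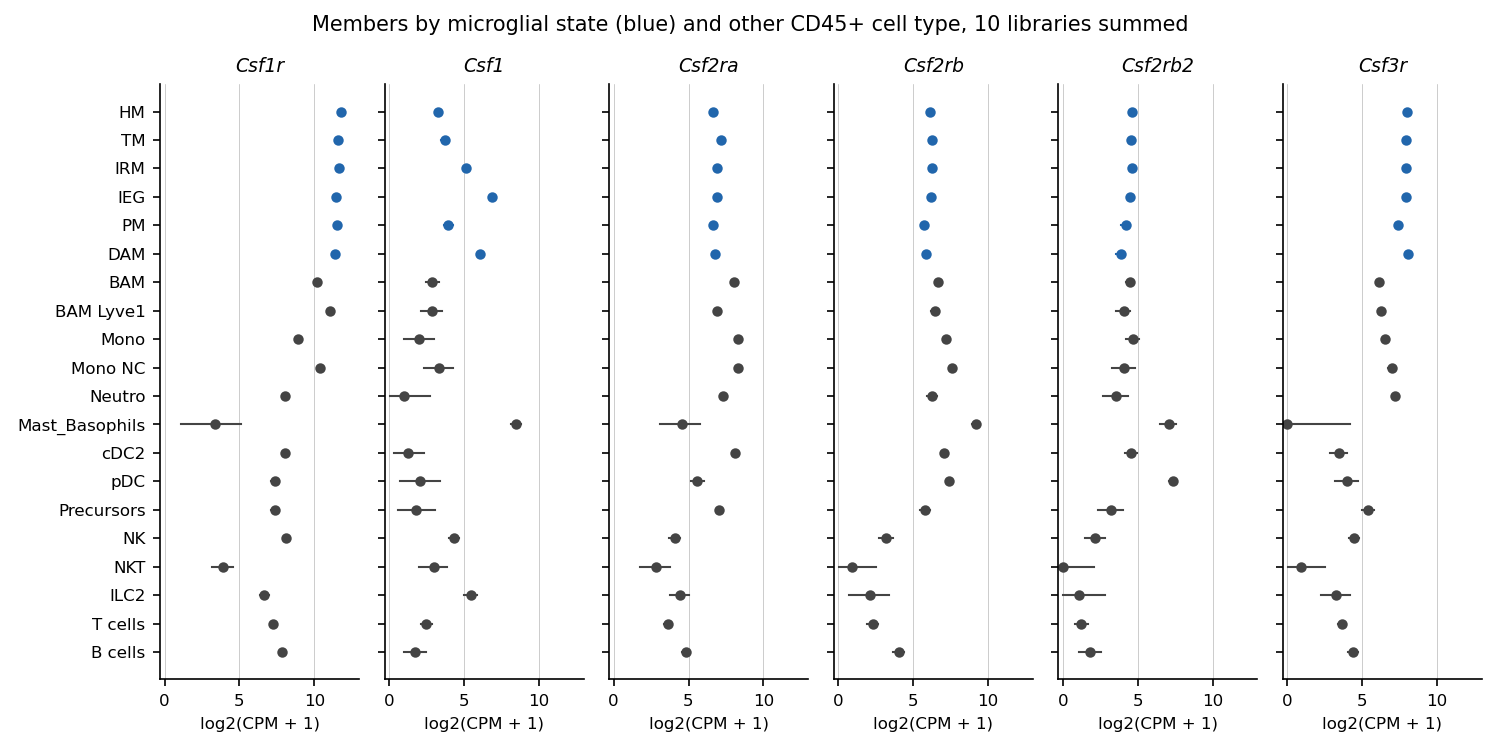
The level of each of the 6 genes, as log2(CPM + 1) on the horizontal axis, in the 6 microglial states (blue) and in the other CD45+ cell types with at least 20 cells, the 10 libraries summed, with lines for exact Poisson 95% intervals. Csf1r is high in every microglial state (2643 to 3453 CPM), whereas Csf1 is highest in mast cells or basophils (359 CPM) and, among microglia, in IEG (114 CPM).

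Csf1r, the receptor for Csf1 and Il34, was a general microglial gene. The level over all microglia was 3253 ± 275 CPM (SD, n = 10 libraries), and by the mean of the 10 libraries the states ranged from 3378 ± 231 CPM in HM through IRM (3121), TM (2998), DAM (2938 ± 465) and PM (2925) to 2782 ± 216 CPM in IEG. Neighbours in this order differed by less than the larger of their SDs (279 CPM for IRM). These SDs include differences between ages, with HM at a mean of 3602 CPM at 3 months and 3165 CPM at 9 months. The states were not compared within each library. Pooled over libraries, DAM were the lowest at 2643 CPM, 0.765 of HM, and this value leaned on the APP/PS1 libraries of 9 months, which held 253 and 202 of the 901 DAM. Macrophages of the brain borders followed, with 2111 ± 160 CPM in Lyve1-positive BAM (n = 9) and 1136 ± 136 CPM in other BAM (n = 10). The ranges over libraries of all microglia (2866 to 3735 CPM), Lyve1-positive BAM (1924 to 2384 CPM) and BAM (961 to 1386 CPM) did not meet, although DAM and IEG alone went down to 2167 and 2319 CPM in single libraries. Non-classical monocytes (Mono NC) were at 1329 CPM pooled, close to BAM, and Mono were at 474 CPM.

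Low Csf1r counts were also present in lymphocytes, beside counts of other microglial transcripts. T cells held 113 ± 149 CPM (n = 10 libraries), which was 0.227 to 15.8% of the microglial level of the same library, while the summed microglial marker genes in the same T cells stood at 0.362 to 15.4% of theirs. The range was 0 to 15.2% in B cells (8 libraries, markers 0.378 to 16.6%) and 3.43 to 15.3% in NK cells (7 libraries, markers 3.71 to 16.1%). NK cells were at 329 ± 189 CPM (SD, n = 7) with all cells and at 26.8 CPM without cells with a doublet score above 0.5. What part of the lymphocyte Csf1r counts came from microglial RNA was not tested.

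Csf2ra, the GM-CSF-specific chain, was higher in monocytes and border macrophages than in microglia. The pooled level was 315 CPM in Mono NC, 310 in Mono, 271 in type 2 dendritic cells (cDC2) and 256 in BAM, which was 2.47 times the 104 CPM of microglia. Per library, BAM were at 249 ± 45.8 CPM and microglia at 102 ± 7.18 CPM (SD, n = 10 each). Lyve1-positive BAM, at 121 ± 24.4 CPM (n = 9), did not differ from microglia beyond their spread. Among microglia, TM were the highest at 140 CPM.

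The beta chains had a different distribution. Csf2rb was highest in mast cells or basophils at 588 CPM, then in migratory dendritic cells at 298 CPM (17 cells), Mono NC at 192 CPM, plasmacytoid dendritic cells (pDC) at 169 CPM and Mono at 147 CPM, with microglia at 67.5 ± 7.63 CPM and BAM at 102 ± 35.3 CPM (SD, n = 10 each). Csf2rb2 was highest in pDC at 162 CPM and in mast cells or basophils at 133 CPM, whereas microglia were at 22.1 ± 2.22 CPM (n = 10) and BAM at 21.3 CPM pooled. In pDC, Csf2rb2 gave 49.0% of the UMIs of both beta chains (exact binomial 95% interval 43.3 to 54.8%), against 24.6% in microglia (23.9 to 25.2%), 17.6% in BAM and 7.73% in Mono NC. The microglial share varied little between libraries, from 22.3 to 26.6%. The intervals cover counting error only.

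Csf3r, in contrast, was at a higher CPM in microglia than in neutrophils, the type it is best known from. Microglia were at 248 ± 7.70 CPM (SD, n = 10 libraries), the smallest spread relative to the level among the 6 genes, with DAM at 263 CPM, HM at 252 CPM and PM at 166 CPM. Neutrophils (79 cells) were at 148 CPM, Mono NC at 128, Mono at 92.7 and Lyve1-positive BAM at 77.2 CPM pooled. In the 2 libraries with at least 20 neutrophils Csf3r was at 99.0 and 213 CPM, against 234 to 261 CPM in the microglia of all 10. The 5 neutrophil markers alone made up 325936 CPM of the neutrophils, and their part in the lower CPM was not tested. A Csf3r UMI was found in 74.7% of neutrophils and 65.7% of microglia at median depths of 12631 and 4506 UMIs, and in 19.0% and 30.9% at 1500 UMIs per cell. BAM were at 68.2 ± 15.6 CPM (n = 10), and the pooled microglial level was 3.63 times that of BAM. In the 28 mast cells or basophils no Csf3r UMI was found, which allows a level of up to 13.8 CPM (3 counts).

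The genes whose pattern over 25 cell types and states was most like that of each member, by Pearson's r of log2(CPM + 1) over 11720 genes, were taken as up to 3 per member. Csf1r was closest to Itgb5 (r = 0.970), Abhd12 (0.952) and the fractalkine receptor Cx3cr1 (0.951), and Csf3r to Sipa1l2 (0.946), Lrp1 (0.937) and the cyclooxygenase gene Ptgs1 (0.930). Csf2ra was closest to Spi1, which encodes the myeloid transcription factor PU.1 (r = 0.885), and Rab32 (0.872) was also among its nearest. Csf2rb was closest to Rassf3 (0.923), Tbc1d8 (0.891) and Grk3 (0.877), Csf2rb2 to Smim3 (0.869), Sh2b2 (0.848) and Nucb2 (0.832), and Csf1 to Rabac1 (0.815), Zfp189 (0.798) and Os9 (0.787). The 25 points share libraries, and the values are a description. The order depended on the types entered: over the 20 types with at least 20 cells, a choice made after the data were seen, none of the 6 nearest genes stayed among the 3 nearest of its member.

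The comparison of APP/PS1 with non-diseased brains asked whether amyloid pathology moved these genes. In all microglia, Csf1 was at 24.0 CPM in APP/PS1 at 3 months and 33.8 CPM at 9, and Nlrp3KO APP/PS1 gave 21.2 and 34.8 CPM. The 6 non-diseased libraries lay between 9.53 and 16.4 CPM with a median of 14.0 CPM. All 4 APP/PS1 libraries were thus above all 6 non-diseased libraries. The share of all genes that separate in this way is not given here. Within the 4 pairs of the same age and Nlrp3 genotype, Csf1 was higher in APP/PS1 in 4 of 4, with a log2 fold change of 0.85 (SE 0.17, 95% interval 0.44 to 1.26). The adjusted p was 0.286 across 12282 genes (edgeR quasi-likelihood test, pair as a block, unadjusted p = 0.00145), and DESeq2's Wald test gave 0.89 with an adjusted p of 0.00378. Neither passed the call used here, an adjusted p under 0.05 together with an absolute log2 fold change above 1.

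**Figure D2:**
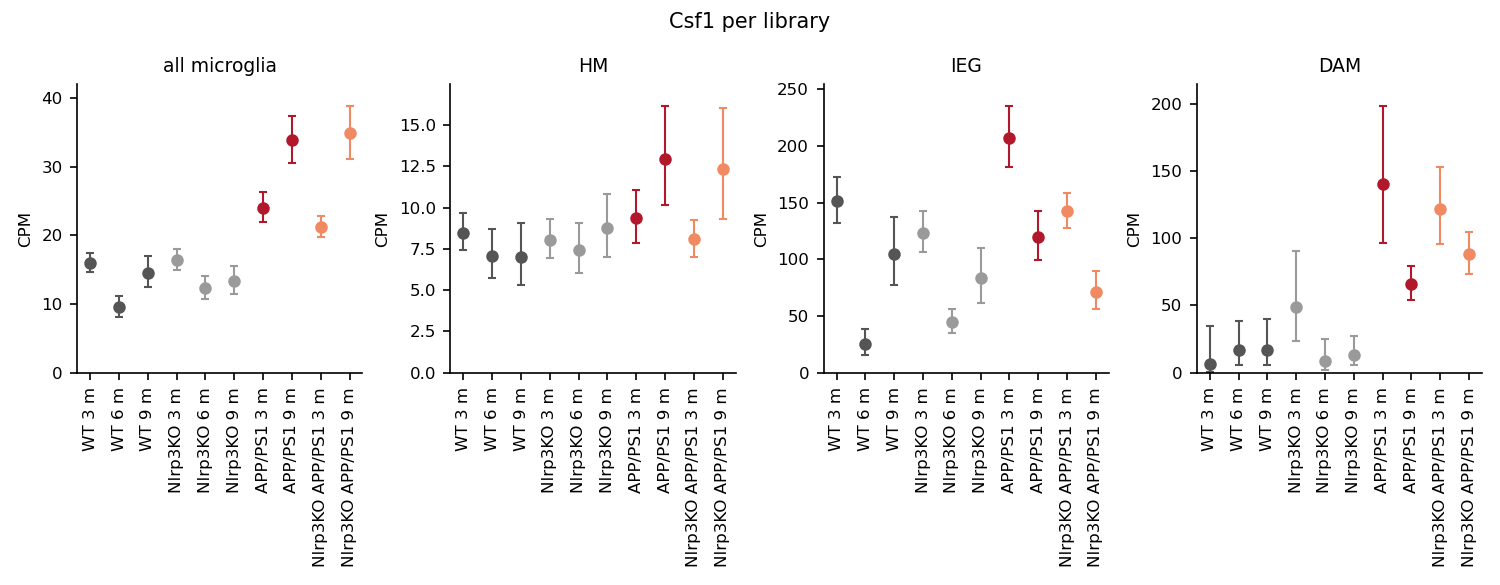
Csf1 CPM in each of the 10 libraries, in all microglia and in the HM, IEG and DAM states, with 95% counting intervals. In all microglia the 4 APP/PS1 libraries (21.2 to 34.8 CPM) sit above the 6 non-diseased libraries (9.53 to 16.4 CPM), and in DAM they range from 65.7 to 141 CPM against 6.21 to 49.0 CPM.

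None of the 6 members was called in all microglia by edgeR, where 5 of 12282 genes (0.0407%) were called and 918 (7.47%) had an unadjusted p under 0.05. Csf1 alone of the 6 had an unadjusted p under 0.05. Csf1r was at 3435, 3285 and 3065 CPM in WT at 3, 6 and 9 months, at 3526, 3259 and 3096 CPM in Nlrp3KO, at 3735 and 2907 CPM in APP/PS1 and at 3353 and 2866 CPM in Nlrp3KO APP/PS1 at 3 and 9 months. The 4 libraries of 3 months were above all others, and the genotypes overlapped. The fold change of Csf1r with APP/PS1 was -0.02 (95% interval -0.15 to 0.12, log2), higher in 1 of 4 pairs, and Csf2ra was higher in 4 of 4 pairs at 0.12 (interval -0.02 to 0.26) with an adjusted p of 0.686. Csf2rb (-0.0029, interval -0.12 to 0.11), Csf2rb2 (0.07) and Csf3r (0.06) lay near 0.

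**Figure D3:**
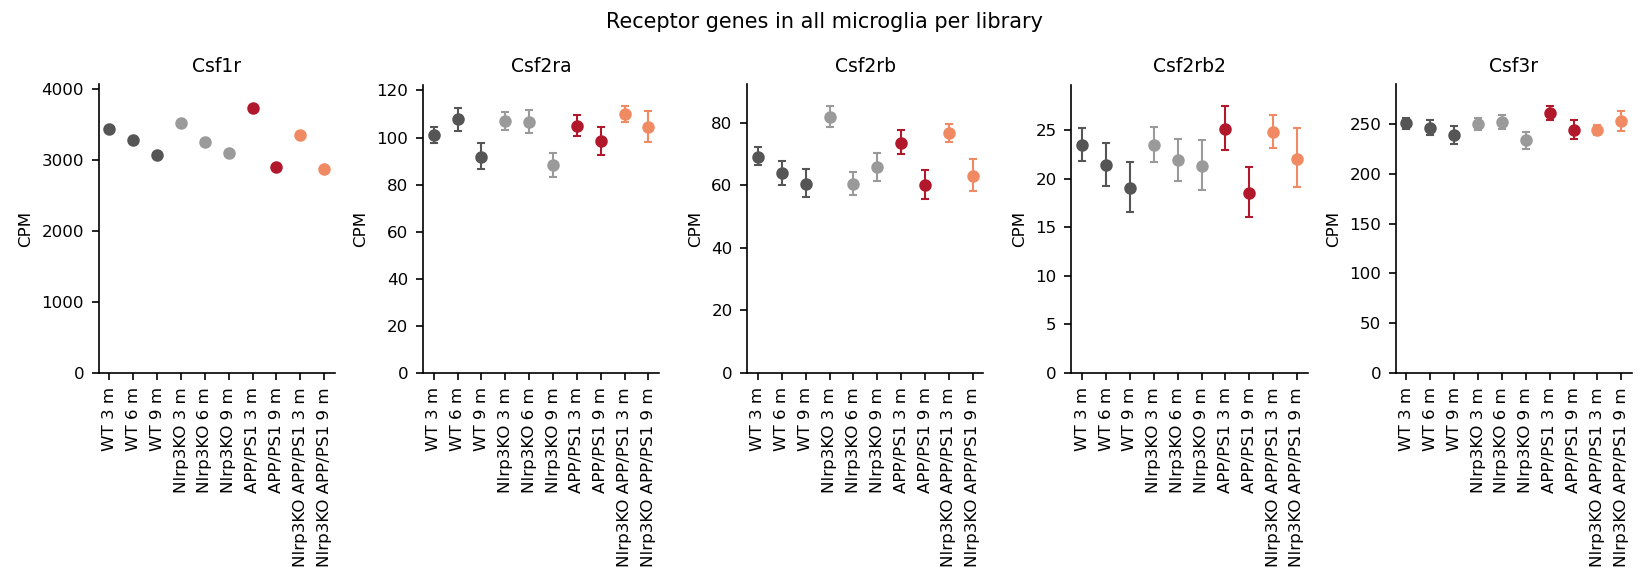
CPM of the 5 receptor genes in the microglia of each of the 10 libraries, with 95% counting intervals. Csf1r is highest in the 4 libraries of 3 months (3353 to 3735 CPM), and Csf3r stays between 234 and 261 CPM in all 10.

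The difference in Csf1 was split by microglial state. The APP/PS1 minus non-diseased difference in Csf1 UMIs per 1000000 microglial UMIs was 8.02 and 4.89 at 3 months (Nlrp3 wild type and Nlrp3KO) and 19.3 and 21.4 at 9 months. At 3 months IEG held 67.9% and 65.1% of it and DAM 20.5% and 35.8%. At 9 months IEG held 35.5% and 18.2% and DAM 49.0% and 62.3%, so that the larger part lay in IEG at 3 months and in DAM at 9 months. The HM part was between -10.9% and 9.21% in the 4 pairs. The split was not repeated with the annotation of all CD45+ cells, which placed partly different cells in IEG and DAM.

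The share of cells in each state differed as well. At 3 months DAM made up 0.778 and 1.01% of the microglia in APP/PS1 and Nlrp3KO APP/PS1, against 0.431 and 0.622% in WT and Nlrp3KO, and at 9 months 11.7 and 11.5% against 2.34 and 3.79%. IEG made up 4.96 and 5.48% against 3.49 and 4.30% at 3 months, and 8.35 and 9.74% against 3.36 and 4.24% at 9 months. Both shares were thus higher in APP/PS1 in 4 of 4 pairs. Immediate-early genes are also known to be induced by tissue dissociation, whose part in the IEG values was not tested. Without DAM, the log2 fold change of Csf1 was 0.60 (adjusted p = 0.367), without IEG 0.82 (adjusted p = 0.472) and without both 0.37 (adjusted p = 0.764, edgeR), of which the last 2 were chosen after the data were seen.

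**Figure D4:**
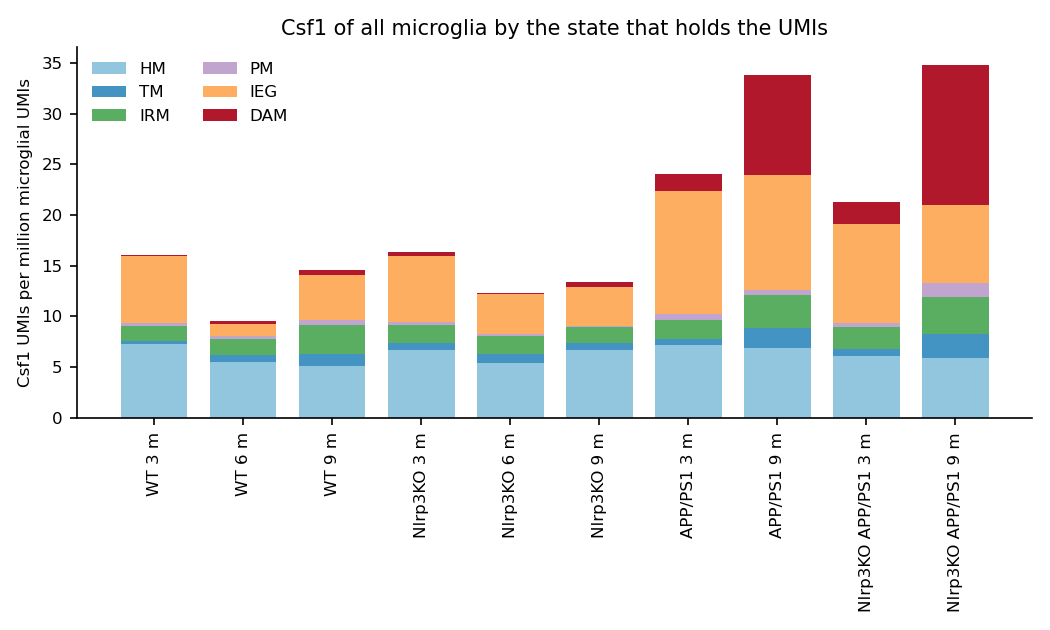
Stacked bars of Csf1 UMIs per 1000000 microglial UMIs in each library, divided by the microglial state of the cell. The IEG and DAM segments make up most of the APP/PS1 excess, with DAM the larger one at 9 months (49.0% and 62.3% of the difference from the paired control).

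The effect of APP/PS1 on Csf1 was also compared between 9 and 3 months. The difference of the log2 fold changes was 0.90 (SE 0.14, 95% interval 0.55 to 1.24), with an unadjusted p of 0.000617 and an adjusted p of 0.502 (edgeR). No gene of 12282 was called by edgeR in this comparison, 601 (4.89%) had an unadjusted p under 0.05, and DESeq2 called 6. With a pair left out, 1 age rests on 1 pair, and the spread comes from the pairs of the other age alone, so those adjusted p say little. Without the APP/PS1 and WT libraries of 9 months the difference was 0.997 (adjusted p = 0.00503, 57 genes called), and without the Nlrp3KO APP/PS1 and Nlrp3KO libraries of 9 months 0.789 (adjusted p = 0.0126, 209 genes called). Without a pair of 3 months it was 0.998 or 0.790, with an adjusted p of 1 and 0 genes called in both.

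Within HM, Csf1 was at 9.37 CPM in APP/PS1 and 8.07 CPM in Nlrp3KO APP/PS1 at 3 months, with 12.9 and 12.3 CPM for the same genotypes at 9 months, against 7.02 to 8.75 CPM (median 7.74) in the 6 non-diseased libraries. The 9-month APP/PS1 libraries were the highest, while the Nlrp3KO APP/PS1 library of 3 months lay within the non-diseased range. The log2 fold change was 0.28 (SE 0.14, 95% interval -0.05 to 0.60, adjusted p = 0.900 by edgeR), higher in 4 of 4 pairs. The other 5 members ranged from -0.0086 to 0.13, and none of the 6 was called, as was no gene of 11887 in HM (edgeR, with 544 genes, 4.58%, at an unadjusted p under 0.05).

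Within DAM, Csf1 rose with APP/PS1. The level was 141 CPM (32 UMIs) in APP/PS1 and 122 CPM (74 UMIs) in Nlrp3KO APP/PS1 at 3 months, and 65.7 CPM (109 UMIs) and 88.1 CPM (130 UMIs) at 9 months. WT were at 6.21, 16.5 and 17.1 CPM at 3, 6 and 9 months and Nlrp3KO at 49.0, 8.54 and 13.3 CPM, from 1 to 10 UMIs per library. The groups did not overlap, and the Nlrp3KO library of 3 months was the highest of the 6 non-diseased ones. How large a share of all genes separates like this in DAM is not given here.

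The log2 fold change was 2.43 (SE 0.31, 95% interval 1.80 to 3.07, adjusted p = 8.86e-06 by edgeR), higher in 4 of 4 pairs. It rests on few cells, since the libraries held 24 to 253 DAM in APP/PS1 and 31 to 102 in the non-diseased mice. The edgeR test of Csf1 used 24.7 degrees of freedom, of which 3 came from its own pairs and the rest from other genes. With the annotation made on all CD45+ cells in place of that made on microglia, an alternative chosen after the data were seen, the change was 1.72 (adjusted p = 0.000196). Csf1 was the only member called of 5 tested, where 179 of 6331 genes (2.83%) were called, 150 of them (2.37%) higher in APP/PS1. Csf2rb2 had too few counts in DAM to be tested.

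Cells annotated as DAM were not alike in the groups. The sum of 5 DAM markers (Cst7, Lpl, Itgax, Spp1 and Apoe) in these cells was 6635 to 16557 CPM in the 4 APP/PS1 libraries and 1059 to 5004 CPM in the 6 non-diseased libraries. Over all DAM, Apoe was at 7693 CPM, Cst7 at 1511 CPM and the others at 50.8 to 307 CPM, so the sum was mostly Apoe. The 6 microglial markers summed to 17580 to 20529 CPM in the APP/PS1 libraries and to 21545 to 24860 CPM in the others, again without overlap. Markers of mast cells or basophils were at 0 in the DAM of all 10 libraries, and the immediate-early gene markers (4 genes) ranged from 166 to 243 CPM against 150 to 367 CPM. Whether the difference in DAM markers has a part in that of Csf1 was not tested.

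Among the receptors in DAM, Csf2ra passed the adjusted p threshold but not the fold limit, at 0.74 (SE 0.21, adjusted p = 0.0274 by edgeR), and was higher in 3 of 4 pairs. Of all genes tested in DAM, 477 (7.53%) passed on the adjusted p alone and 1160 (18.3%) on the unadjusted p. Its levels overlapped, with 149 (3 months) and 86.1 CPM (9 months) for APP/PS1 and 196 and 119 CPM for Nlrp3KO APP/PS1, against 30.8 to 168 CPM (median 87.8) in the non-diseased ones. The value was 0.15 (adjusted p = 0.754) with the annotation made on all CD45+ cells. Csf1r was lower with APP/PS1 in 4 of 4 pairs, at 2167 to 3067 CPM against 2806 to 3510 CPM, with a log2 fold change of -0.25 (95% interval -0.52 to 0.02, adjusted p = 0.326). Csf2rb was at -0.28 (adjusted p = 0.616) and Csf3r at 0.24 (adjusted p = 0.453).

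Within IEG, the microglial state with the highest pooled Csf1 level, it was at 207 CPM in APP/PS1 and 142 CPM in Nlrp3KO APP/PS1 at 3 months and 120 and 71.6 CPM at 9 months. WT were at 152, 24.8 and 104 CPM and Nlrp3KO at 124, 44.3 and 83.3 CPM at 3, 6 and 9 months. The groups overlapped, APP/PS1 was higher in 3 of 4 pairs, and both 6-month libraries were the lowest. The 4 immediate-early gene markers were, in contrast, highest in the 6-month WT library (843 CPM, against 442 to 843 CPM over all 10). IEG did not have the most Csf1 in every library. DAM were higher, at 88.1 CPM, in Nlrp3KO APP/PS1 at 9 months. The 24.8 CPM of IEG in WT at 6 months lay below the lowest IRM value of any library, 26.9 CPM.

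**Figure D5:**
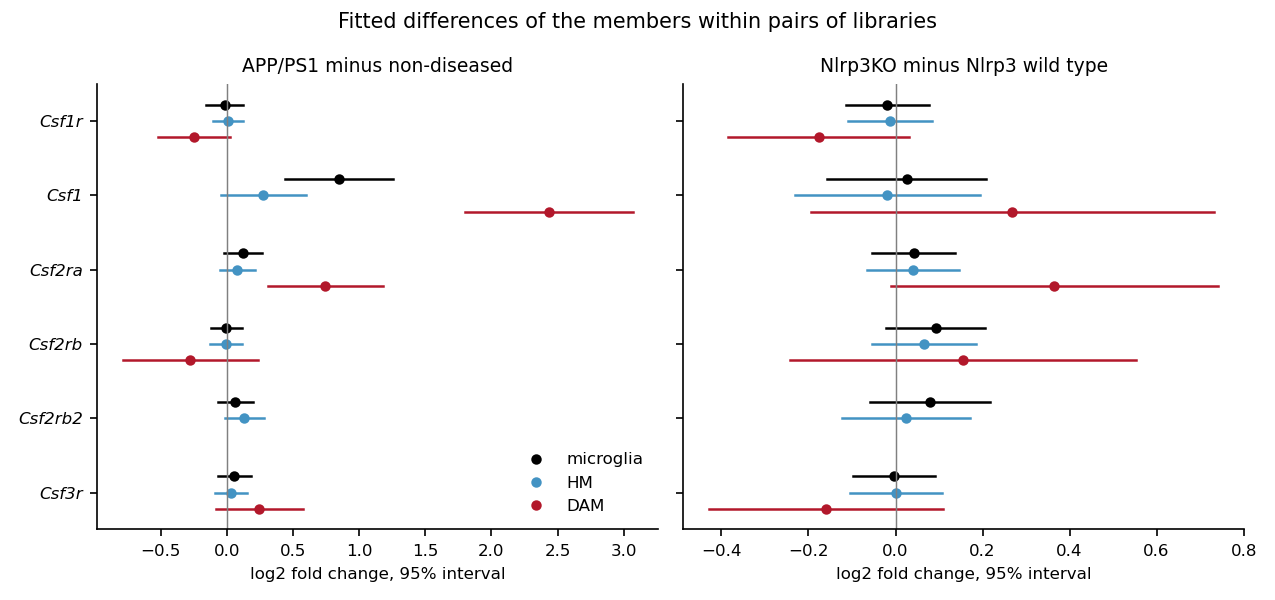
Log2 fold changes with 95% intervals for the members, APP/PS1 minus non-diseased on the left and Nlrp3KO minus Nlrp3 wild type on the right, in all microglia, HM and DAM. Csf1 in DAM with APP/PS1 (2.43) stands apart from the other estimates, and Csf2rb2 was not tested in DAM.

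The comparison of Nlrp3KO with Nlrp3 wild type asked whether loss of the inflammasome sensor moved the same genes. No member was called in any of the 3 cell sets, by edgeR or DESeq2, and none had an unadjusted p under 0.05 in microglia, HM or DAM. In all microglia, where 3 of 12383 genes (0.0242%) were called and 574 (4.64%) passed 0.05 unadjusted, the log2 fold changes of the 6 members lay between -0.02 and 0.09, with interval bounds from -0.16 to 0.22. In HM, where 4 of 11970 genes (0.0334%) were called and 548 (4.58%) had an unadjusted p under 0.05, they lay between -0.02 and 0.07. For Csf1, the 5 Nlrp3KO libraries ranged from 12.3 to 34.8 CPM and the 5 Nlrp3 wild-type libraries from 9.53 to 33.8 CPM in all microglia. The groups overlapped throughout. Nlrp3 itself was among the genes called, with a log2 fold change of -12.8.

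In DAM, the estimates with Nlrp3KO were less precise. Csf1 was at 0.27 (95% interval -0.19 to 0.73, adjusted p = 0.896), Csf2ra at 0.37 (unadjusted p = 0.0568, adjusted p = 0.692) and Csf1r at -0.18 (adjusted p = 0.787, edgeR), where 7 of 5789 genes (0.121%) were called and 434 (7.50%) had an unadjusted p under 0.05. A difference of the Nlrp3 effect between APP/PS1 and non-diseased mice passed the test for no member in all microglia. For Csf1 it was -0.14 (interval -0.53 to 0.26), and no gene of 12383 was called by edgeR, with 310 (2.50%) at an unadjusted p under 0.05 and 1 called by DESeq2.

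Outside the microglia, 5 types had enough cells for a paired test, B cells, BAM, Lyve1-positive BAM, NK cells and T cells. In 28 tests of a member, none was called by edgeR or DESeq2 and 1 had an unadjusted p under 0.05, where 2.18 to 7.37% of all genes tested did in the 9 fits. It was that of Csf2rb in BAM with Nlrp3KO, at 0.37 (SE 0.16), with an adjusted p of 0.925, higher in 4 of 5 pairs. Of all genes tested, the calls for Nlrp3KO were 0.0746% in BAM, 0.0678% in Lyve1-positive BAM, 0.0303% in B cells, 0.126% in NK cells and 0% in T cells, and those for APP/PS1 were 0.270%, 0.0571%, 0.0469% and, in T cells, 0.162%. Csf1 in NK cells, at 1.30 (interval -0.09 to 2.68, higher in 2 of 3 pairs), had the lowest adjusted p of the 28, 0.832. Its levels rested on 1 to 28 UMIs per library. Across types the estimates ranged from -0.65 to 0.30 for APP/PS1 (11 tests) and from -0.57 to 1.30 for Nlrp3KO (17 tests).

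A list of 35 other genes of these pathways, with ligands, partner chains, signalling proteins and transcription factors, gave the context. Of the ligands, Il34 and Csf2 had 1 UMI each over all microglia and Csf3, Il3 and Il5 had none, and the Il5 receptor alpha chain Il5ra had 1. The partner chain Il3ra was at 4.06 CPM (2.75 to 8.23 over libraries), whereas Tyrobp, an adaptor of Trem2 that also takes part in Csf1r signalling, was at 3134 CPM. Of the transcription factors, Irf8 was at 653, Spi1 at 425, Cebpa at 223 and Runx1 at 190 CPM. In all microglia, 29 of the 35 were tested, and none passed an adjusted p under 0.05 in either direction for APP/PS1 or for Nlrp3KO, by edgeR or DESeq2, with 2 and 1 at an unadjusted p under 0.05 by edgeR. Their median log2 fold change was 0.02 with APP/PS1, against 0.0032 over all genes, and 0.05 with Nlrp3KO, against 0.0068. The largest estimates with APP/PS1 were those of Il3ra at 0.48 (adjusted p = 0.512), Socs2 at 0.32 and the kinase Fyn at 0.30. With Nlrp3KO they were those of Cebpb at 0.65 and Socs2 at 0.45, at adjusted p of 0.904 each.

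In HM, none of 29 tested passed an adjusted p under 0.05 in either comparison by edgeR, nor of the 27 (APP/PS1) and 29 (Nlrp3KO) with an adjusted p by DESeq2, with 0 and 2 at an unadjusted p under 0.05 by edgeR. Socs2, a cytokine-induced inhibitor of JAK-STAT signalling, was higher with Nlrp3KO in 5 of 5 pairs at 0.87 (adjusted p = 0.919), at a level of 0.765 to 2.99 CPM over all microglia, and Cebpb was at 0.55. With APP/PS1, Socs2 was at -0.34 and Socs1 at 0.31. In the tests of a difference between effects, Cebpb was at 0.76 and Socs2 at 0.63 between ages, and Socs1 at -0.67 and Cebpb at 0.45 between backgrounds, where none of 29 passed by either tool (1 and 0 at an unadjusted p under 0.05). Cebpb, a transcription factor of the inflammatory response, was at 7.58 to 48.5 CPM in the 4 libraries of 9 months and at 186 to 220 CPM in the other 6. The WT library of 9 months was the lowest of the 10 for Cebpb, for Cebpa (66.6 CPM, against 131 to 261) and for Grb2 (74.7 CPM, against 143 to 202).

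In DAM, 22 of the 35 were tested with APP/PS1, and 2 rose and none fell at an adjusted p under 0.05 by edgeR (3 and 3 at an unadjusted p under 0.05), beside 7.53% of all genes that passed there in either direction and 18.3% unadjusted. DESeq2 gave 15 of the list an adjusted p, and the same 2 genes rose. Tyrobp rose by 1.18 on the log2 scale (SE 0.16, adjusted p = 2.44e-05, 4 of 4 pairs) and was called, and Cebpa, a transcription factor of the myeloid lineage, rose by 0.79 (SE 0.20, adjusted p = 0.0130, 4 of 4 pairs) and stayed under the fold limit. With a pair left out, Tyrobp stayed called at 1.02 to 1.38, whereas Cebpa was at 0.58 (adjusted p = 0.0772) without the APP/PS1 and WT libraries of 9 months and at 0.84 (adjusted p = 0.0538) without the Nlrp3KO APP/PS1 and Nlrp3KO libraries of that age. The WT library of 9 months was the lowest for Cebpa in DAM, at 34.2 CPM against 116 to 242 CPM in the other 9, and for Grb2, at 44.4 CPM against 117 to 202 CPM. Without the pair that holds it, Csf1 with APP/PS1 was at 2.54 in DAM (adjusted p = 8.59e-05) and at 0.73 in all microglia (adjusted p = 0.283). The median of the 22 was -0.16, against -0.04 over all genes tested. The largest estimates among the others were those of the adaptor Grb2 at 0.58 (adjusted p = 0.0805) and the exchange factor Sos1 at -0.54. With Nlrp3KO, none of 18 tested passed in DAM by either tool (2 at an unadjusted p under 0.05), with Cebpb at 0.61 (adjusted p = 0.565) and Sos1 at -0.52.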

How the data were processed

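The authors mapped reads of 91 bases from droplet 3′ libraries to mm10 with Cell Ranger, whose version is not given in the sources used here, and deposited raw UMI counts per gene and cell. The deposited cell annotations also hold a mitochondrial percent per cell, written as a percent, a mitochondrial fraction and a doublet score per cell, whose caller is not given in the sources used here. Doublets were kept, and the tests and the levels per type were repeated without cells whose score was above 0.5. Shares of cells, the split by state, beta chain shares and likeness were not. Cells marked as outliers by the authors had been removed before deposit. Cells of 2 sample names that match no label were not analysed here.

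Samples were grouped by their GEO labels. UMI counts were summed per library and cell type or state, from the authors' annotation of microglia or, for other types, of all CD45+ cells. Effects were tested with edgeR 4.0.16 (quasi-likelihood F test, filterByExpr, TMM, Benjamini-Hochberg over all genes tested), with R 4.3.3, between libraries paired by age and the other genotype, with the pair as a block: 4 pairs for APP/PS1 and 5 for Nlrp3KO. The pairing comes from the design, since an age is also a batch. Calls needed an adjusted p below 0.05 together with a log2 fold change beyond 1 in either direction. DESeq2 1.42.0 was an alternative, and others were DESeq2 size factors, no filter, doublets removed, each pair left out, no block and other cell sets, of which those without IEG, the other annotation for HM and DAM, and likeness over types with at least 20 cells were chosen after seeing the data. Levels are UMIs per 1000000 summed UMIs, averaged over libraries with at least 20 cells of a type. DAM were tested in libraries with at least 10. Total counts per library, given with the results, set the precision, and intervals on levels cover counting error only. Fits were tested on simulated counts with large known changes in genes with enough counts, a fixed dispersion and no differences between pairs. That does not speak to smaller changes or to genes with few counts. Promoter sequences came from RefSeq, and 4 of the 6 members matched.

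The members and the gene lists were chosen with earlier results of these data known. The genes named are the 6 members, ligands, alpha chains and main transcription factors of the pathway list, those of the list at an adjusted p under 0.05 and the 2 of the rest with the largest change in a comparison, and the 3 genes most like each member, of which 1 is not reported here.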

Additional observations from a re-analysis of the deposited data

Results flagged for a closer look

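In 168 sets of 4 to 6 libraries (a member in microglia or a state, in the APP/PS1, non-diseased, Nlrp3KO or Nlrp3 wild-type libraries), 8 had a library far from the others, by Dixon's 95% limit on the gap over the range. Chance sets apart about 1 in 20 such sets. In DAM, the Nlrp3KO library of 3 months was at 49.0 CPM of Csf1, against 6.21 to 17.1 CPM in the other non-diseased libraries. In HM, the Nlrp3KO APP/PS1 library of 9 months was at 12.3 CPM of Csf1, against 7.45 to 8.75 CPM in the other Nlrp3KO libraries. That set mixes APP/PS1 and non-diseased libraries, and the APP/PS1 library of 9 months with wild-type Nlrp3 was at 12.9 CPM. In PM, the APP/PS1 library of 3 months was at 22.1 CPM of Csf1, against 12.2 to 14.5 CPM in the other libraries with wild-type Nlrp3.

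Among the receptors, Csf2ra in all microglia was low in the Nlrp3KO library of 9 months, at 88.3 CPM against 105 to 110 CPM in the other Nlrp3KO libraries. In TM, the Nlrp3KO library of 3 months was high for both chains of the GM-CSF receptor, with Csf2ra at 163 CPM (other Nlrp3KO libraries 125 to 135 CPM) and Csf2rb at 98.1 CPM (other non-diseased libraries 63.3 to 74.9 CPM). Csf3r in TM was at 255 CPM in the APP/PS1 library of 3 months, against 227 to 231 CPM in the other APP/PS1 libraries. Csf2rb2 in IEG was low in the Nlrp3KO library of 6 months, at 18.1 CPM against 24.8 to 25.5 CPM in the other Nlrp3KO libraries.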

How the results depend on the processing

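Csf1 in DAM with APP/PS1 was called under all 9 alternatives that gave it an adjusted p. The log2 fold changes were 1.72 to 2.89, with a highest adjusted p of 0.000461. An alternative that gave Csf1 no adjusted p is not counted, so the call was not tested there. DESeq2's result for Csf1 in DAM is not given separately here. No library held fewer than 24 DAM, so a minimum of cells at or below that number repeats the main fit. No call of a member changed among 409 alternative values. Csf2ra in DAM had an adjusted p of 0.0900 without doublets, 0.0977 by DESeq2's Wald test and 0.0229 to 0.131 with a pair left out. For Csf1 with APP/PS1 in all microglia, leaving out a pair gave 0.68 to 1.05. Without the replicate block it was 0.86 (adjusted p = 0.249), with 5 genes called, and that of Nlrp3KO was 0.02 with 4 genes called. Leaving out the block changed no call of a member.

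Signs changed in 27 of the 409, at most 0.0508 from 0 and with a lowest adjusted p of 0.843. With APP/PS1 in all microglia, Csf2rb was 0.0019 without doublets and 0.0074 without DAM. With Nlrp3KO, Csf1 was -0.019 without doublets and -0.030 without DAM, and Csf3r 0.0023 without DAM. In HM with Nlrp3KO, Csf3r was -0.00091 with DESeq2 size factors and -0.0014 by its Wald test, and Csf1 0.030 with the annotation of all CD45+ cells. With a pair left out, the ranges were, for APP/PS1 in all microglia, Csf1r -0.055 to 0.0096 and Csf2rb -0.027 to 0.040, and in HM Csf1r -0.027 to 0.040, Csf2rb -0.045 to 0.031 and Csf3r -0.012 to 0.068. For Nlrp3KO they were Csf1 -0.051 to 0.085, Csf1r -0.036 to 0.012 and Csf3r -0.028 to 0.017 in all microglia, and Csf1 -0.081 to 0.045, Csf1r -0.030 to 0.023, Csf2rb2 -0.018 to 0.062 and Csf3r -0.027 to 0.030 in HM. Between backgrounds Csf1 ranged from -0.27 to 0.0034.

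Counts of genes called moved more. With APP/PS1 in all microglia 5 became 22 by DESeq2, 1 without DAM, 0 without DAM and IEG, and 0 to 11 with a pair left out (0 without either Nlrp3KO APP/PS1 pair, 11 without the APP/PS1 and WT libraries of 9 months). With Nlrp3KO 3 became 6 by DESeq2 and 2 to 8 with a pair left out (8 without Nlrp3KO and WT of 9 months). In HM the ranges were 0 to 4 and 2 to 8. In DAM, 179 with APP/PS1 became 65 by DESeq2, 273 without the filter, 78 with the annotation of all CD45+ cells and 124 to 189 with a pair left out, and 7 with Nlrp3KO became 2, 24 and 3 to 20 (DESeq2, no filter, a pair left out). Between ages, 0 became 6 by DESeq2 and 0 to 209, and between backgrounds 1 and 0. In other types 0 members were called with any pair left out.

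Of 288 alternative values for levels, 18 differed from the value they replace by more than 1 SD over libraries or, in types with under 3 libraries of at least 20 cells, where pooled values were compared, lay outside its 95% counting interval. Without doublets, the NK levels became 26.8 CPM for Csf1r, 8.23 for Csf2ra and 1.37 for Csf3r, and Csf1r was at 187 in cDC2, 25.1 in ILC2, 415 in Mono, 1168 in Mono NC, 50.5 in neutrophils, 76.4 in precursors and 39.0 in pDC. ILC2 were at 0 for Csf2rb2 and 2.28 for Csf3r, Mono NC at 1.41 for Csf1 and pDC at 3.78 for Csf3r. Summed over libraries, cDC2 were at 1.34 for Csf1 and 22.8 for Csf2rb2 and NKT at 0.855 for Csf3r, and B cells were at 3.40 for Csf1 with at least 50 cells. The cause of these changes was not tested. Thinned to 1000 UMIs, shares of cells with Csf1 were 0.795% in HM, 2.99% in IRM, 8.21% in IEG and 17.9% in mast cells or basophils. With a pseudocount of 10, Rabac1 left the 3 genes most like Csf1 (r = 0.684), Spi1, Smim3 and Sipa1l2 lost first place but stayed among the 3, and Itgb5 and Rassf3 stayed first. Over types with at least 20 cells, all 6 left the 3 nearest, at r of 0.972 (Itgb5), 0.771 (Rabac1), 0.893 (Spi1), 0.895 (Rassf3), 0.810 (Smim3) and 0.945 (Sipa1l2). First place there went to Marcks (0.983, Csf1r), Il6 (0.871, Csf1), 1600010M07Rik (0.9502, Csf2ra), Alox5ap (0.959, Csf2rb), Csf2rb (0.927, Csf2rb2) and Mtus1 (0.9746, Csf3r), named after their values were seen.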
